A study of Mus musculus with 16 samples.

Results

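Neural stem cells of the mouse were sequenced in 2 experimental batches, and the 6 RNA-seq libraries labelled batch 2 are compared here with the 6 labelled batch 1. These are all 12 RNA-seq libraries among the 16 of the study. The other 4 are ribosome footprint libraries and were not used here. Each batch held 3 libraries labelled gRNA and 3 labelled control. All 12 came from cells kept in growth conditions that maintain self-renewal, and the gRNA group had received a treatment that the study calls TAPIR. The labels do not say what the guide RNA targets, and they give no strain, age or line name. The libraries of batch 1 are named 1 to 3 (gRNA) and 4 to 6 (control), and those of batch 2 are named 1, 3 and 5 (gRNA) and 2, 4 and 6 (control), with numbers that only name them. The labels do not state whether the libraries came from separate cultures or animals, so the p-values below measure only the spread between these libraries, which may be technical. Batch cannot be told apart from anything else that differed between the batches, including the cells themselves and the preparation of the libraries. Genes on the X and Y chromosomes were left out.

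Cultured neural stem cells divide in the presence of growth factors, and they retain part of the transcription factor code of the brain region they were taken from. Along the head-to-tail axis this code runs from factors of the forebrain, such as Emx2 and Sp8, to the Hox genes of the hindbrain and spinal cord, which lie in 4 chromosomal clusters, HoxA to HoxD. A second code along the back-to-belly axis is set by Wnt, BMP and Sonic hedgehog signals. Stem cells can also carry a standing antiviral state, in which interferon signalling keeps genes such as Ifit1 and Oasl2 on.

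The depth was 8414028 to 19454390 reads in genes per library in batch 1 and 13011630 to 16984538 in batch 2. Levels are CPM, reads scaled to library size by the TMM method. On log2 levels the first principal component separated the batches and held 85.5% of the variance, and correlations between libraries were 0.983 to 0.995 within batch 1, 0.974 to 0.995 within batch 2 and 0.853 to 0.869 between batches. Of 15267 autosomal genes tested by edgeR's quasi-likelihood test with treatment as a covariate, 9239 (60.5%) differed between batches at a Benjamini-Hochberg adjusted p under 0.05, 4599 (30.1%) of them higher in batch 2 and 4640 (30.4%) lower. Against a null of at most a 2-fold difference, 3096 (20.3%) passed, 1183 (7.75%) higher and 1913 (12.5%) lower. These are called past the 2-fold minimum below. In 6169 genes (40.4%) the 6 libraries of a batch all lay above the 6 of the other. Any count for a group of genes has to be read against these shares. The median log2 difference, batch 2 minus batch 1, was 0.005 over the genes tested.

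**Figure D1:**
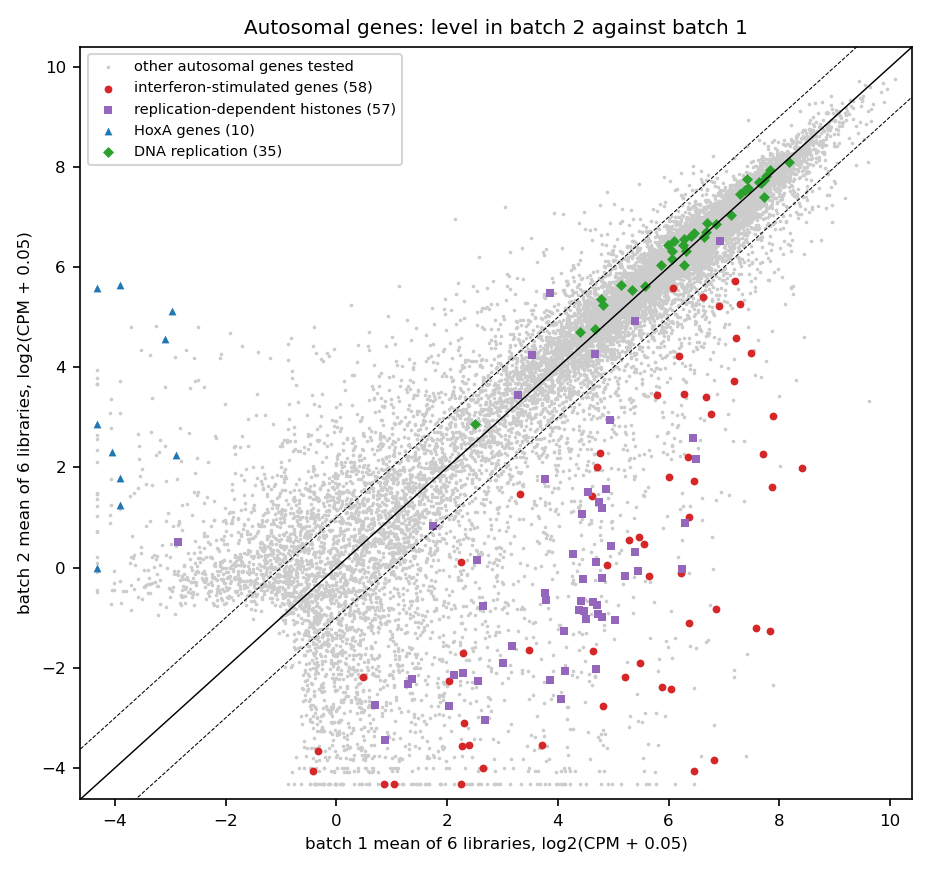
Mean level of each autosomal gene tested in batch 1 (x axis) and batch 2 (y axis), each the mean of 6 libraries as log2(CPM + 0.05), with equality as a solid line and 2-fold differences as dashed lines. The 58 interferon-stimulated genes (circles) and most of the 57 histone genes (squares) lie below the line, the 10 HoxA genes (triangles) lie at the left edge above it, and the 35 DNA replication genes (diamonds) follow it.

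Both batches carried the core genes of neural stem cells. Sox2, a transcription factor of neural progenitors, was at 133 to 188 CPM in batch 1 (median 145) and at 127 to 192 CPM in batch 2 (median 139). Nes, the intermediate filament nestin, was at 449 to 802 CPM (median 551) and at 518 to 609 CPM (median 554). The batches overlapped in both genes, with log2 differences of −0.07 (SE 0.11, adjusted p = 0.58) for Sox2 and −0.10 (SE 0.12, adjusted p = 0.496) for Nes. Pax6, a forebrain and eye factor, was at 63.7 to 78.5 CPM in batch 1 and 62.5 to 103 CPM in batch 2, also overlapping, with a log2 difference of 0.11 (SE 0.10, adjusted p = 0.358). Pou5f1, the pluripotency factor Oct4, had 4 reads in all of batch 1 and 0 in batch 2.

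Some markers of several other cell types were near 0 in both batches. Of the microglia and blood list, Aif1, Cx3cr1 and Ptprc had at most 0.199 CPM in any library. The 3 members of this list of 12 that were tested, 1 called higher and 2 lower, were not near 0. They summed to 20.2 to 32.1 CPM in batch 1 and 30.3 to 51.3 CPM in batch 2. Of the fibroblast list, Dcn, Lum and Col3a1 had at most 0.418 CPM in any library. The 17 members tested nonetheless summed to 1424 to 1856 CPM in batch 1 and 1064 to 1581 CPM in batch 2. The 8 endothelial and mural genes tested summed to 7.43 to 14.5 CPM in batch 1 and 9.93 to 28.4 CPM in batch 2. Of the 13 neural crest genes, 6 were tested, 3 called higher and 2 lower, with a median log2 difference of 0.147 that turned negative under several settings. The defining factor Foxd3 had 1 read in all 12 libraries. Tfap2a, a crest and skin factor, was at 0 to 0.209 CPM in batch 1 and 16.8 to 21.2 CPM in batch 2, a log2 difference of 7.51 (SE 0.26, adjusted p = 1.11e-11), and Ngfr, a crest receptor, was lower (log2 difference −2.17, adjusted p = 3.47e-06). In bulk RNA, fewer cells of a type and less RNA per cell cannot be told apart, and this holds for every difference below.

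The head-to-tail code differed in its posterior part. Hoxa7, a factor of trunk-level spinal cord, had 0 reads in all 6 batch 1 libraries and 45.4 to 49.6 CPM in batch 2 (median 48.3), at least 1374.5-fold higher when batch 1 is set to the limit that 0 reads allow (3 reads over the group). Hoxa5, a factor of the hindbrain and neck level, had 1 read in all of batch 1 and 45.7 to 52.3 CPM in batch 2 (median 50.5). Hoxa10, a lumbar-level factor, was at 0 to 0.179 CPM in batch 1 and at 29.2 to 40.6 CPM in batch 2, a log2 difference of 8.79 (SE 0.28, adjusted p = 5.64e-12). No library of batch 1 came near any library of batch 2 in these genes.

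Transcripts were detected along the HoxA cluster on chromosome 6, and genes of the other 3 clusters were too low to test. Of 39 Hox genes, 10 had enough reads to be tested, and all 10 were HoxA genes. Each passed the 2-fold minimum, higher in batch 2, beside 7.75% of all genes tested. They passed the filter on low counts only through batch 2, so their direction was given. The level in batch 2 was uneven along the cluster: Hoxa3 was at 21.2 to 27.2 CPM, the next gene Hoxa4 at 0.751 to 1.29 CPM, and Hoxa6 at 6.34 to 8.63 CPM between Hoxa5 and Hoxa7. These levels are not per gene length. Hoxa11 was at 0 to 0.0617 CPM in every library although its neighbours Hoxa10 and Hoxa13 were detected. The highest level of any HoxB, HoxC or HoxD gene in any of the 12 libraries was 0.74 CPM, of Hoxd4 in batch 2.

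**Figure D2:**
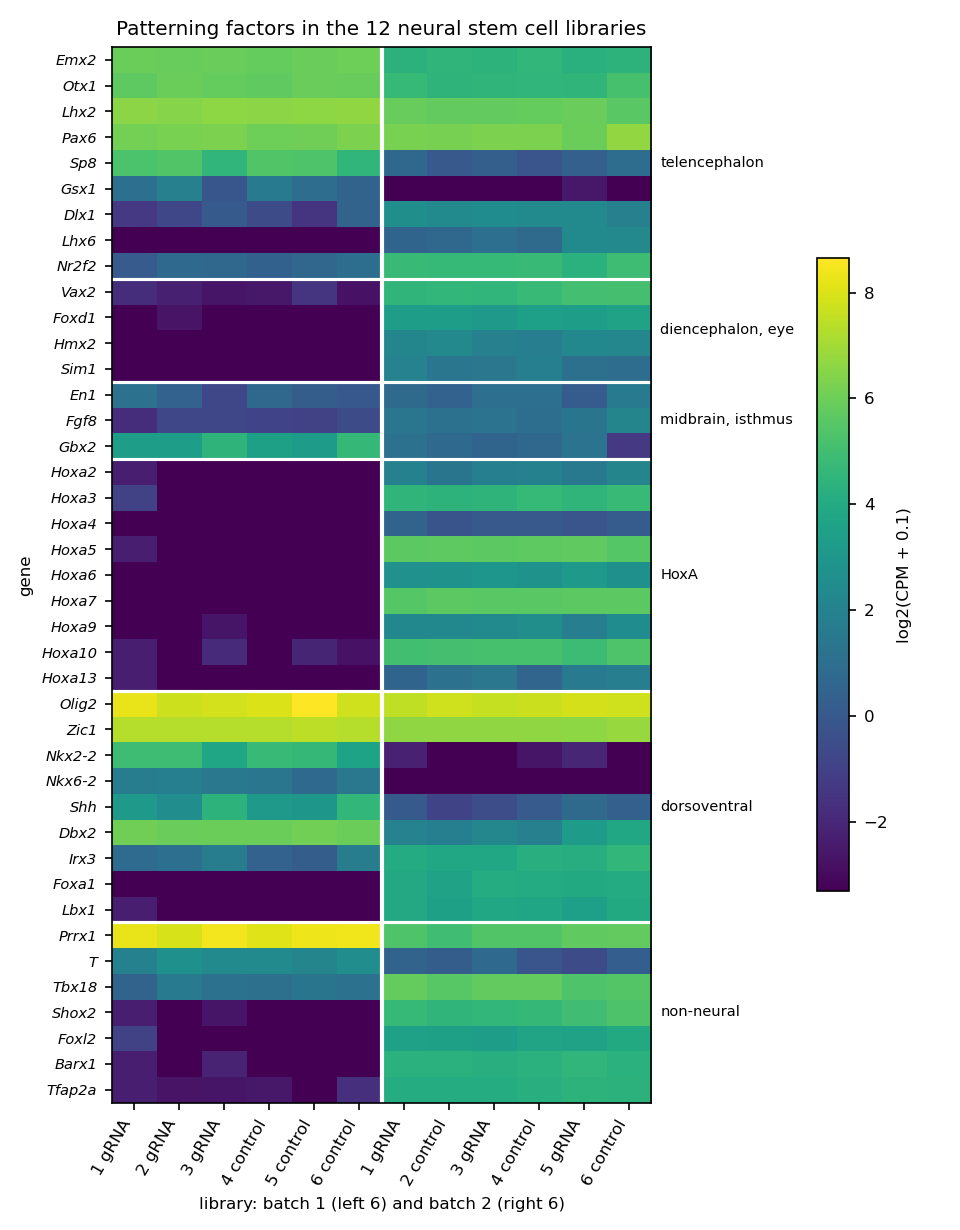
Levels of patterning genes (rows) in each library (columns), as log2(CPM + 0.1), grouped by the region or axis the factor is known for, with batch 1 left and batch 2 right of the white line. Emx2 and Pax6 are present in all 12 libraries, and the HoxA genes are near the bottom of the scale in batch 1 and present in batch 2.

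The forebrain factor Emx2 was present in batch 2 at a lower level. Emx2, a factor of the dorsal cortex, was at 56.6 to 63.4 CPM in batch 1 (median 60.9) and at 19.3 to 24.1 CPM in batch 2 (median 21.1). The batches did not overlap, and the log2 difference of −1.50 (SE 0.07, adjusted p = 3.94e-10) passed the 2-fold minimum. So the same 6 libraries of batch 2 held this telencephalic factor and trunk-level HoxA transcripts. Whether single cells carried both was not measured.

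Within the telencephalon the list split. Of 21 factors tested, 5 passed the 2-fold minimum higher and 6 lower in batch 2, and the median log2 difference was −0.541. Sp8, a factor of the cortical and olfactory primordium, was at 23.6 to 42.2 CPM in batch 1 and 0.802 to 1.82 CPM in batch 2, a log2 difference of −4.83 (SE 0.24, adjusted p = 4.12e-10). Gsx1, a ventral progenitor factor, was at 0.835 to 3.57 CPM in batch 1 and had 1 read in batch 2. In the other direction, Nr2f2, a nuclear receptor of caudal forebrain, was at 0.997 to 1.93 CPM in batch 1 and 20.2 to 30.6 CPM in batch 2, a log2 difference of 4.12 (SE 0.16, adjusted p = 3.27e-11). Dlx1, a factor of the inhibitory neuron lineage, was at 0.265 to 1.31 CPM in batch 1 and 3.64 to 6.15 CPM in batch 2. Lhx6, of the same lineage, had 0 reads in batch 1 and 1.34 to 5.22 CPM in batch 2. Gsx1 and Lhx6 passed the filter on low counts only through the batch where they were high, so their direction was given.

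Of 7 diencephalon and eye-field factors tested, 5 passed the 2-fold minimum, all higher in batch 2, and the median log2 difference was 7.92, or 6.28 with genes at 0 reads set to their bound. These 5 had at most 9 reads each in all of batch 1 and passed the filter on low counts through batch 2, so their direction was given. Vax2, a factor of the ventral eye, was at 0.0522 to 0.265 CPM in batch 1 and 22.9 to 34.3 CPM in batch 2. Foxd1, of the diencephalon and the temporal retina, had 1 read in batch 1 and 8.73 to 11.8 CPM in batch 2. Hmx2 and Sim1, both known from the hypothalamus, had 0 reads in batch 1 and were at 3.39 to 4.88 CPM and 1.82 to 3.80 CPM in batch 2. The remaining members, Tcf7l2 and Barhl2, had log2 differences of −1.08 and −0.29.

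At the boundary of midbrain and hindbrain, 7 factors were tested, 2 past the 2-fold minimum in each direction. Gbx2, the hindbrain-side factor, was at 9.68 to 24.9 CPM in batch 1 and 0.291 to 2.25 CPM in batch 2, a log2 difference of −3.29 (SE 0.38, adjusted p = 3.81e-06). Fgf8, the signal of this boundary, was at 0.199 to 0.574 CPM in batch 1 and 1.91 to 4.22 CPM in batch 2, a log2 difference of 2.50 (SE 0.27, adjusted p = 1.43e-06). Otx2, the midbrain-side factor, had 2 reads in batch 1 and 1 in batch 2.

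Factors of the back-to-belly axis differed in both directions. Over the 20 tested, 6 passed the 2-fold minimum higher and 5 lower, with a median log2 difference of −0.452. Nkx2-2, a factor of the most ventral progenitors next to the floor plate, was at 12.1 to 30.8 CPM in batch 1 and 0 to 0.145 CPM in batch 2, a log2 difference of −8.53 (SE 0.47, adjusted p = 1.28e-09). Nkx6-2, another ventral factor, was at 1.59 to 3.51 CPM in batch 1 and had 0 reads in batch 2, at least 81.8-fold lower. Shh, the ventral signal itself, was at 5.71 to 24.4 CPM in batch 1 and 0.451 to 1.67 CPM in batch 2. Dbx2, of intermediate progenitors, was at 60.7 to 69.4 CPM and 3.53 to 13.8 CPM. Foxa1, a floor plate factor and so also ventral, had 0 reads in batch 1 and 12 to 16.9 CPM in batch 2, at least 437-fold higher. Irx3 and Irx5, neighbouring homeobox genes on chromosome 8, were at 1.06 to 3.18 and 2.65 to 5.59 CPM in batch 1 and at 14 to 24 and 17.3 to 30.5 CPM in batch 2, and reads of Irx3 cannot be told apart from those of its antisense neighbour Irx3os, which was higher too. Lbx1, a factor of dorsal spinal interneurons, had 1 read in batch 1 and 10.9 to 15.5 CPM in batch 2. Nkx2-2, Nkx6-2, Foxa1 and Lbx1 passed the filter on low counts only through the batch where they were high, so their direction was given.

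Effectors, targets and antagonists of the hedgehog and Wnt pathways also split. Of 24 tested, 5 passed the 2-fold minimum in each direction. Gli3, the repressor-forming hedgehog effector, was at 58.2 to 117 CPM in batch 1 and 1.24 to 3.77 CPM in batch 2, a log2 difference of −5.21 (SE 0.26, adjusted p = 9.86e-10). Gli1, an activator and target of the pathway, was at 0.399 to 1.36 CPM and 2.61 to 8.23 CPM. Lef1, a Wnt effector and target, was at 0.212 to 0.835 CPM and 12.8 to 20.5 CPM, a log2 difference of 4.74 (SE 0.25, adjusted p = 9.89e-10), while the Wnt target Axin2 had a log2 difference of −1.44. Of the secreted Wnt antagonists, Sfrp1 was higher (log2 difference 2.28) and Sfrp2 lower (−2.47) in batch 2, both past the 2-fold minimum.

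Most tested transcription factors known from tissues outside the nervous system were higher in batch 2. Of 61 on the list, 24 were tested and 37 were too low. Of the 24, 18 passed the 2-fold minimum higher in batch 2 and 4 lower, beside 7.75% and 12.5% of all genes tested. The median log2 difference was 6.07, or 5.32 with genes at 0 reads set to their bound. All of the 18 but Tbx2 and Tbx18 averaged at most 0.326 CPM in batch 1 (Tbx15). They passed the filter on low counts through batch 2, so their direction was given. The summed level of the 24 was not higher, at 368 to 500 CPM in batch 1 and 319 to 398 CPM in batch 2. Shox2, of limb and heart, had 2 reads in batch 1 and 22.5 to 39.1 CPM in batch 2. Barx1, of jaw and stomach mesenchyme, had 3 reads in batch 1 and 18.5 to 23.1 CPM in batch 2. These factors were absent or nearly so in all 6 libraries of batch 1. Tbx18, of the heart and kidney mesenchyme, was already measurable in batch 1 at 1.30 to 2.91 CPM and was at 40.8 to 55.9 CPM in batch 2. Foxl2, the ovary and eyelid factor, was at 0 to 0.399 CPM and 10.4 to 15.6 CPM, but reads of its antisense neighbour cannot be told apart from its own, since the sources used here do not say whether the counting used strand. In the other direction, Prrx1, a mesenchymal homeobox gene, was at 240 to 343 CPM in batch 1 and 31.5 to 54.4 CPM in batch 2. T, the mesoderm factor brachyury, was at 3.69 to 6.26 CPM and 0.580 to 1.58 CPM.

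Some of the large differences lay in runs of neighbouring genes. Ordered along the chromosomes (order from RefSeq, GRCm38.p6), 15263 tested genes held 39 runs of at least 4 neighbours past the 2-fold minimum in 1 direction, 31 lower and 8 higher in batch 2, with 215 genes in all. The longest run had 18 genes, from Skap2 through the HoxA genes and their non-coding neighbours to a gene beyond Hoxa13, all higher. Its antisense and overlapping transcripts are uncertain as single genes. Runs of histone genes on chromosome 13 had up to 17 genes, all lower, and the 6 tested Ifit genes on chromosome 19 formed a run of their own.

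The clustered protocadherins of chromosome 18, cell surface proteins of which each neural cell uses a few, changed by position. All 9 genes from Pcdhb2 to Pcdhb11 that passed the 2-fold minimum were higher in batch 2, with Pcdhb6 the exception of that stretch at a log2 difference of 0.71. None of the 11 genes from Pcdhb12 to Pcdhb22 passed it, at log2 differences of −0.75 to 0.21. In the adjacent gamma cluster, 17 of 21 genes passed it, all lower, with a median log2 difference of −3.02. Pcdhgb5 was at 14.4 to 20.8 CPM in batch 1 and 0.145 to 0.376 CPM in batch 2, a log2 difference of −6.33 (SE 0.22, adjusted p = 1.3e-11), whereas Pcdhgc3, at the end of the cluster, was at means of 103 and 105 CPM. The variable exons of these genes join shared constant exons, so single members are uncertain.

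**Figure D3:**
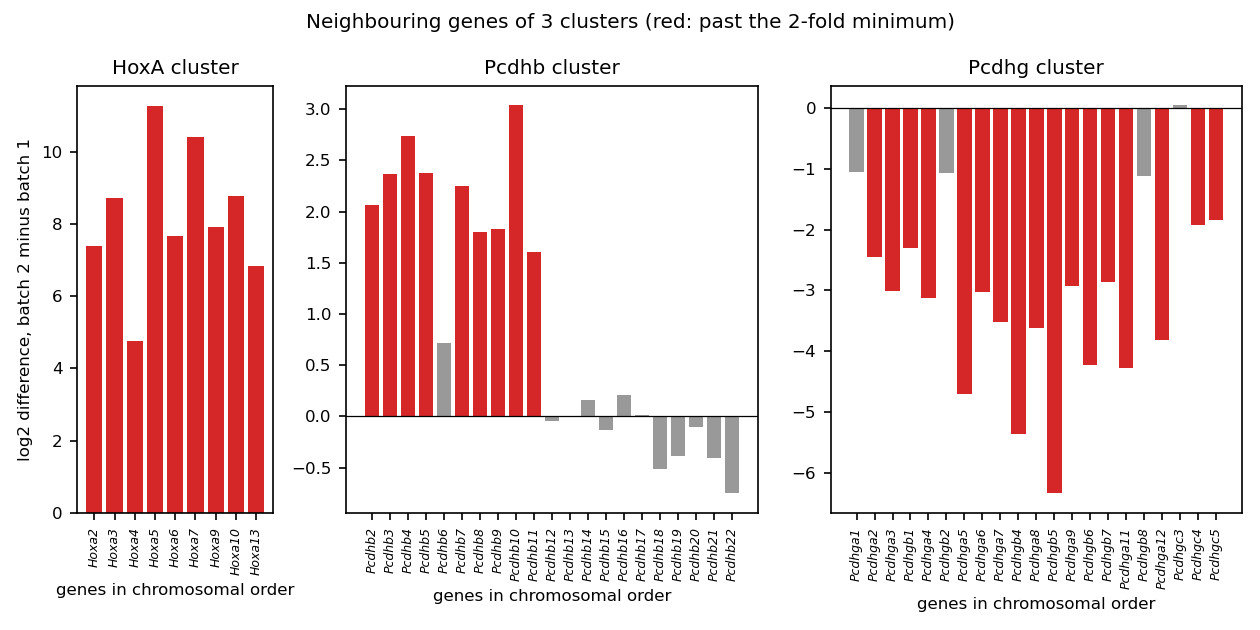
Log2 difference, batch 2 minus batch 1, of tested genes of 3 clusters in chromosomal order (bars from 0; the y axes differ in scale; a gene with 0 reads in a batch is at its bound). Red bars passed the 2-fold minimum: the 9 HoxA genes drawn, of 10 tested, upward, 9 of 21 beta protocadherins upward at 1 end of the cluster, and 17 of 21 gamma protocadherins downward.

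Most genes of the stem cell state were called lower. Of 30 tested, 18 were called lower and 1 higher, beside 30.4% and 30.1% of all genes. Past the 2-fold minimum were 4 lower and 1 higher, beside 12.5% and 7.75% of all genes, and the median log2 difference was −0.378. Among control libraries alone 6 of the 30 were called lower, and among gRNA libraries alone 12. Over all autosomal genes these smaller fits called 2899 and 3599 lower, against 4640 with all 12 libraries. They called fewer genes in total, so these member counts cannot be read against the shares above. Egfr, the receptor for the growth factor EGF, was at 653 to 915 CPM in batch 1 (median 755) and 319 to 600 CPM in batch 2 (median 465), without overlap, a log2 difference of −0.71 (SE 0.12, adjusted p = 7.88e-05). Fgfr2, a receptor for FGF, was at 81.5 to 95.5 CPM and 18.9 to 42.5 CPM, a log2 difference of −1.82 (SE 0.16, adjusted p = 2.38e-07). Prom1, the surface marker CD133, was at 4.23 to 8.07 CPM and 0 to 0.947 CPM, a log2 difference of −4.33 (SE 0.46, adjusted p = 1.38e-06). Fut4, an enzyme that can make the LeX stem cell antigen, was at 4.09 to 5.82 CPM in batch 1 and had 0 reads in batch 2. The receptors of both growth factors were thus present in both batches.

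Astrocyte genes were lower in batch 2, and the size depended on a pair of libraries. Of 19 tested, 9 passed the 2-fold minimum lower and 1 higher, beside 12.5% and 7.75% of all genes. The median log2 difference was −0.419. Aldh1l1, a folate enzyme used to mark astrocytes, was at 67.7 to 162 CPM in batch 1 (median 140) and 7.47 to 35.5 CPM in batch 2 (median 9.99), and Slc1a2, a glutamate transporter, was at 160 to 284 CPM (median 255) and 12.3 to 76.7 CPM (median 16.7). Neither overlapped, and Slc1a2 had a log2 difference of −3.21 (SE 0.45, adjusted p = 4.36e-05). Gfap, the astrocyte filament, overlapped: batch 1 was at 12.9 to 19.5 CPM and batch 2 at 0.391 to 40.8 CPM, with a median of 1.14 CPM. Without batch 2 libraries 5 and 6, the median of the list was −1.44 and 10 members passed lower and 1 higher, and Gfap had a log2 difference of −4.27 (adjusted p = 2.01e-08), against −0.29 (adjusted p = 0.808) with them. S100b, a calcium-binding protein of glia, moved the other way and was at 7.15 to 12.6 CPM in batch 1 and 20.9 to 52.9 CPM in batch 2.

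Libraries 5 and 6 stood apart from the other 4 of batch 2, library 6 (control) most. On the second principal component, which held 4.12% of the variance, library 6 lay at −62.9 and the other 11 at −6.49 to 19.1. The mean log2(CPM + 0.5) of the astrocyte genes was 5.45 and 5.82 in libraries 5 and 6 and 4.61 to 4.82 in the other 4, beside 6 to 6.43 in batch 1. In library 6 the Notch pathway list was at 5.78 (4.93 to 5.27 in the other 5) and the DNA replication list at 5.85 (6.57 to 6.79). In batch 1 these 2 lists were at 4.78 to 4.95 and 6.28 to 6.505. Their part in the results was not tested beyond leaving them out. Without both, 3352 autosomal genes passed the 2-fold minimum, 1192 higher and 2160 lower.

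**Figure D4:**
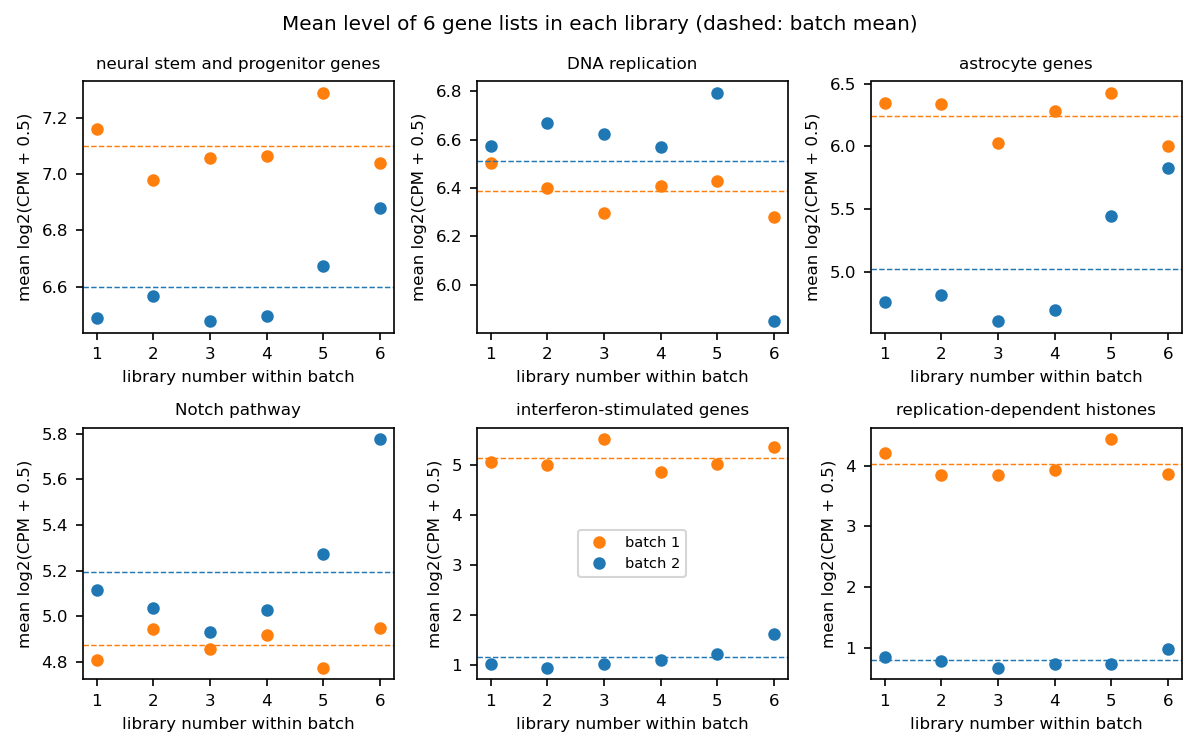
Mean log2(CPM + 0.5) over the tested members of 6 gene lists in each library, with batch 1 in orange, batch 2 in blue and the batch means dashed. The interferon-stimulated and histone lists separate the batches without overlap, while libraries 5 and 6 of batch 2 lie apart in the astrocyte list and library 6 in the Notch and DNA replication lists.

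Neuronal genes went both ways. Of 19 tested, 5 passed the 2-fold minimum higher and 9 lower, beside 7.75% and 12.5% of all genes. The median log2 difference was −1.18. Gap43, a growth cone protein, was at 95 to 144 CPM in batch 1 and 1.11 to 5.37 CPM in batch 2, a log2 difference of −5.58 (SE 0.27, adjusted p = 8.88e-10), and the vesicle proteins Snap25 and Syt1 had log2 differences of −5.03 and −4.46. Tubb3, a neuronal tubulin, was at 2.09 to 4.44 CPM in batch 1 and 13.6 to 26.2 CPM in batch 2, a log2 difference of 2.34 (SE 0.20, adjusted p = 1.83e-07), and Ina, a neuronal filament, was at 3.18 to 7.47 CPM and 47.3 to 51.2 CPM.

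Of 14 oligodendrocyte lineage genes tested, 8 were called higher and 3 lower, beside 30.1% and 30.4% of all genes. In each direction 2 passed the 2-fold minimum, beside 7.75% higher and 12.5% lower, and the median log2 difference was 0.954. Bcas1, a marker of early myelin-forming cells, was at 23.5 to 51.8 CPM in batch 1 and 133 to 160 CPM in batch 2, a log2 difference of 2.00 (SE 0.18, adjusted p = 4.71e-07). Myrf, the myelin gene regulator, was at 5.59 to 8.46 CPM and 29.7 to 41.6 CPM. In the other direction, Nkx2-2, also on this list, had the list's lowest log2 difference, −8.53. It was at 12.1 to 30.8 CPM in batch 1 and had 5 reads in batch 2. Olig2, the lineage factor, was at 217 to 402 CPM and 184 to 234 CPM, overlapping, with a log2 difference of −0.36 (SE 0.13, adjusted p = 0.0309) that did not pass without any of several libraries, as at adjusted p = 0.0837 without batch 1 library 1 and 0.0742 without batch 1 library 5. Mbp, a major myelin protein, stayed at or under 2.48 CPM in every library.

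The division machinery was close in both batches, with DNA replication genes slightly higher in batch 2 libraries 1 to 5. None of the 35 DNA replication genes and none of the 26 mitosis genes passed the 2-fold minimum, and their median log2 differences were 0.15 and −0.095. Mki67, a nuclear protein of dividing cells, was at 624 to 872 CPM in batch 1 and 618 to 764 CPM in batch 2, overlapping, with a log2 difference of −0.10 (SE 0.10, adjusted p = 0.376). Without libraries 5 and 6, 19 of the 35 replication genes were called higher and 1 lower, against 8 and 0 with them. Among gRNA libraries alone 19 were called higher, and among control libraries alone, which include library 6, 0. The mean log2(CPM + 0.5) of this list was 6.28 to 6.505 in batch 1. It was 6.57 to 6.79 in batch 2 libraries 1 to 5 and 5.85 in library 6. Ccnd2, the cyclin of proliferating progenitors, was at 548 to 1140 CPM in batch 1 and 169 to 537 CPM in batch 2, a log2 difference of −0.99 (SE 0.25, adjusted p = 0.00345). Cdk6, a kinase partner of the D cyclins, was at 12.1 to 23.4 CPM and 1.64 to 4.08 CPM, a log2 difference of −2.83 (SE 0.24, adjusted p = 1.5e-07).

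Inhibitors of division and targets of p53 were mostly lower. Of 29 tested, 22 were called lower and 3 higher, beside 30.4% and 30.1% of all genes. Past the 2-fold minimum were 8, all lower, beside 12.5% of all genes, and the median log2 difference was −0.739. Cdkn2a, the locus of the p16 and p19Arf tumour suppressors on chromosome 4, was at 9.15 to 17.3 CPM in batch 1 (median 11.8) and had 0 reads in all 6 libraries of batch 2, at least 386.5-fold lower. Its neighbour Cdkn2b, the p15 inhibitor, was read in every library, at 24.4 to 36.5 CPM in batch 1 and 9.76 to 35.3 CPM in batch 2. Pmaip1, the cell death inducer Noxa, was at 41.2 to 57.4 CPM in batch 1 and had 0 reads in batch 2. Cdkn2a and Pmaip1 passed the filter on low counts only through batch 1, so their direction was given. The death receptor Tnfrsf10b was at 47.2 to 63.0 CPM and 0.300 to 0.802 CPM, a log2 difference of −6.49 (SE 0.18, adjusted p = 1.39e-12). Trp53 itself, the p53 gene, had a log2 difference of 0.13, and Cdkn1a, the p21 inhibitor, −0.75 (SE 0.15, adjusted p = 0.000691), from 142 to 236 CPM in batch 1 to 74.8 to 140 CPM in batch 2.

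**Figure D5:**
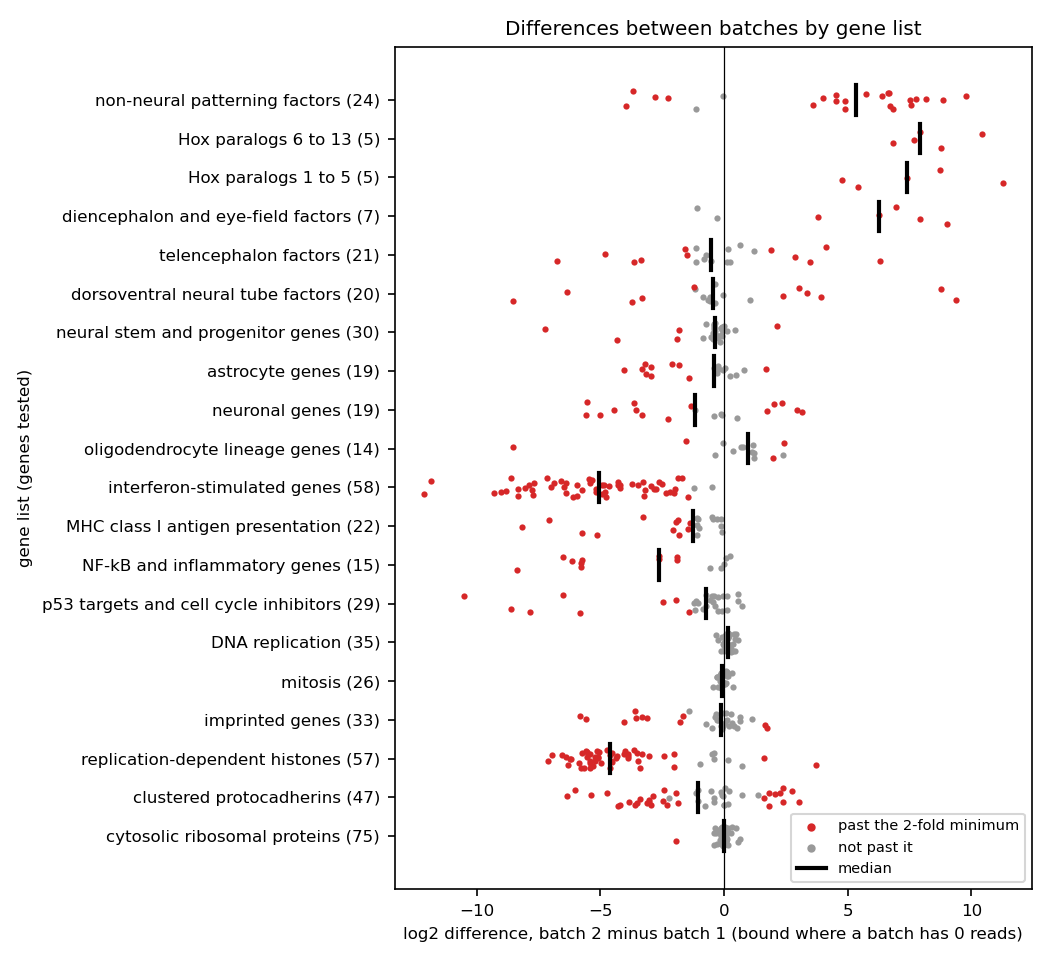
Log2 difference, batch 2 minus batch 1, of the tested members of 20 gene lists (number tested in brackets), with genes past the 2-fold minimum in red and the list median as a black bar; genes with 0 reads in a batch are at their bound. The interferon-stimulated genes and most histones lie far to the left and the Hox and most non-neural patterning factors to the right. DNA replication, mitosis and ribosomal protein genes gather near 0.

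Genes of the antiviral state were lower in batch 2. All 58 interferon-stimulated genes tested were called lower in batch 2, beside 30.4% of all genes, 56 of them past the 2-fold minimum, beside 12.5%, and the median log2 difference was −5.06. The groups did not overlap in any of the 58, beside 40.4% of all genes. Members near 0 in batch 2, such as Parp12 and Trim25, passed the filter on low counts only through batch 1, so their direction was given. Some members are near-identical copies of each other and are uncertain as single genes. Ifit1, a binder of viral RNA, was at 136 to 245 CPM in batch 1 (median 197) and 0 to 1.24 CPM in batch 2 (median 0.295). Rsad2, the antiviral enzyme viperin, was at 251 to 431 CPM (median 339) and 1.38 to 6.10 CPM (median 3.92). Isg15, a ubiquitin-like modifier, was at 37.8 to 67.0 CPM (median 46.7) and 0.280 to 2.40 CPM (median 0.398). The log2 differences were −9, −6.41 and −5.95. Of the members furthest from equality, Parp12, an antiviral ADP-ribosyltransferase, was at 77.7 to 98.8 CPM in batch 1 and had 1 read in all of batch 2, and Trim25, the ubiquitin ligase that activates RIG-I, was at 91.7 to 126 CPM and had 2 reads. Oasl2, an oligoadenylate synthetase-like protein, was at 192 to 269 CPM and 0.0606 to 0.801 CPM, a log2 difference of −9.30 (SE 0.24, adjusted p = 8.95e-13).

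Interferon acts through a promoter element, the ISRE, and the 250 bases before the transcript start were searched for its core, GAAA followed by any 2 bases and GAAA again, on both strands and with overlapping matches counted. RefSeq windows (GRCm38.p6) were at hand for 44 of 55 protein-coding list members tested, and 20 of the 44 (45.5%) held the core, beside 936 of 27018 genes in the table (3.46%). Windows of Oasl2 and Zc3hav1 were also looked at, are not printed and held 0 matches. The 5 windows printed 5′ to 3′ on the strand of the gene were picked to show both kinds. Ifit1, Rsad2 and Isg15 hold the core, in capitals on whichever strand it was found. Trim25 and Parp12, which fell to 2 reads or fewer, do not hold these letters in this window.
Ifit1, chr19:34640639-34640888 (+): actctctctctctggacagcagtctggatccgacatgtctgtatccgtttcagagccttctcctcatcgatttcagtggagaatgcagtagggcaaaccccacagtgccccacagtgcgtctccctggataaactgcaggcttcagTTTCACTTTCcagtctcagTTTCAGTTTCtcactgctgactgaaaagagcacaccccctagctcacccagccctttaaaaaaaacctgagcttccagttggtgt
Rsad2, chr12:26456453-26456702 (-): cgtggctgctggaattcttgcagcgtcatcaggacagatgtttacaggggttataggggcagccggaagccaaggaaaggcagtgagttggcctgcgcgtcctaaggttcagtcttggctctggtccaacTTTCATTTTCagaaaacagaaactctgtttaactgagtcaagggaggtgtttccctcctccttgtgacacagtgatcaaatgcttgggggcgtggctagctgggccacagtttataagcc
Isg15, chr4:156200819-156201068 (-): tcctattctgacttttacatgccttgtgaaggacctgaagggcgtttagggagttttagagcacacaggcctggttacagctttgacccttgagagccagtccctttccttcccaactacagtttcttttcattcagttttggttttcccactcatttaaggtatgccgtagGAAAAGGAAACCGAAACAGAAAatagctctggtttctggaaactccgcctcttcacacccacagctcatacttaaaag
Trim25, chr11:88999153-88999402 (+): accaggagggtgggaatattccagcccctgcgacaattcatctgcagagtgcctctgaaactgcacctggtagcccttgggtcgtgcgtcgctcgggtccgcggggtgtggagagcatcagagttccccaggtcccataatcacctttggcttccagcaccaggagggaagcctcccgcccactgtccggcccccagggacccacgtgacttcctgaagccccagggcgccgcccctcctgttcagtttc
Parp12, chr6:39118350-39118599 (-): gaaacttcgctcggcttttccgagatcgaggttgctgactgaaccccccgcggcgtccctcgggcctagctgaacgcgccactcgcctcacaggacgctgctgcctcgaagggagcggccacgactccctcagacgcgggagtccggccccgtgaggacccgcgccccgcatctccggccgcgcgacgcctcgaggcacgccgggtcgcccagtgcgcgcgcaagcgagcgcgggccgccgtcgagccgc
In Isg15 the 3 matches overlap in 1 stretch, and in Ifit1 the 2 matches, read on the other strand, are separate. A match is a description of the sequence and not evidence of binding.

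The genes that sense viral nucleic acids and carry the interferon signal followed in part. Of 29 tested, 10 passed the 2-fold minimum, all lower, beside 12.5% of all genes, with a median log2 difference of −0.955. Ifih1, the RNA sensor MDA5, was at 172 to 303 CPM in batch 1 and 0.901 to 10.9 CPM in batch 2, a log2 difference of −6.37 (SE 0.51, adjusted p = 2.92e-07). Cgas, the DNA sensor, was at 24.3 to 33.1 CPM and 0.150 to 0.943 CPM. The interferon receptor chains were read in both batches. Ifnar1 was at 156 to 183 CPM in batch 1 and 131 to 165 CPM in batch 2, overlapping, with a log2 difference of −0.23 (SE 0.07, adjusted p = 0.00781), and Ifnar2 at 16.5 to 24.3 CPM and 14.9 to 19.2 CPM, with a log2 difference of −0.21 (SE 0.11, adjusted p = 0.123). Irf9, a DNA-binding factor of interferon signalling, was at 64.2 to 86.2 CPM in batch 1 and 15.8 to 27.1 CPM in batch 2, a log2 difference of −1.98 (SE 0.14, adjusted p = 1.45e-08). Ifnb1, the interferon beta gene, had 0 reads in all 12 libraries.

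Genes of MHC class I presentation, which shows peptides to T cells, were mostly lower. Of 22 listed, 18 were called lower and 0 higher, beside 30.4% and 30.1% of all genes. Past the 2-fold minimum were 11, all lower, beside 12.5% of all genes, with a median log2 difference of −1.25. H2-D1 was at 113 to 171 CPM in batch 1 and 31.4 to 41.5 CPM in batch 2, and Nlrc5, the activator of this gene group, was at 43.4 to 80.7 CPM and 1.05 to 2.39 CPM. H2-Q2, a class I gene outside the list, was higher in batch 2, with 1 read in batch 1 and 1.68 to 2.85 CPM in batch 2, and so was its neighbour H2-Q1 (log2 difference 2.47, adjusted p = 0.000652), though its batches overlapped. Both were chosen after their values were seen. B2m, the shared light chain, was at 72.9 to 145 CPM and 60.2 to 76.6 CPM, overlapping. Of 15 NF-kB and inflammatory genes, 10 passed, all lower, beside 12.5% of all genes. The chemokine Cxcl10 was at 76.9 to 145 CPM in batch 1 and 0.0617 to 0.798 CPM in batch 2. The class I heavy chain genes are near-identical in places and uncertain as single genes.

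Genes read in a single batch were more often those of batch 1. By the rule of at least 2 CPM in all 6 libraries of a batch and under 0.2 CPM in all 6 of the other, 150 autosomal genes were detected in batch 1 only and 36 in batch 2 only. Of the 150, 140 were protein-coding, 48 had 0 reads in all of batch 2 and 76 were at 10 CPM or more. Of the 36, 27 were protein-coding, 12 had 0 reads in all of batch 1 and 14 were at 10 CPM or more. Among the former, Col5a2, a fibrillar collagen chain, was at 76.8 to 97.5 CPM in batch 1, at least 2681-fold higher than the limit in batch 2, and Zfp518a, a zinc finger protein, was at 63.3 to 72.6 CPM. Slitrk5, a synaptic adhesion protein, was at 43.8 to 62.8 CPM, and all 3 had 0 reads in batch 2. The potassium channel gene Kcnk1 (31.3 to 38.5 CPM) and the sialyltransferase gene St6gal2 (19.9 to 46.6 CPM) were likewise at 0 reads in batch 2. Pcdh7, a protocadherin, was at 157 to 181 CPM in batch 1 and had 2 reads in batch 2. Among the latter, Tlx1, a homeobox factor of spleen and hindbrain, was at 11.2 to 13.8 CPM in batch 2 and had 0 reads in batch 1. Dcpp1 and Dcpp2, near-identical secreted proteins, had 0 reads in batch 1, and their reads cannot be assigned to either with certainty.

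Genes measured at 2 CPM or more in all 12 libraries showed that large differences were not limited to genes near 0. Kcna2, a potassium channel of axons, was at 642 to 1050 CPM in batch 1 and 8.31 to 14 CPM in batch 2, a log2 difference of −6.31 (SE 0.15, adjusted p = 3.28e-13). Sema5a, a guidance protein, was at 202 to 339 CPM and 2.06 to 10.7 CPM, and Cavin1, a coat protein of caveolae, was at 112 to 171 CPM and 3.52 to 9.91 CPM. Upward, Ulbp1, a ligand of the natural killer receptor NKG2D, was at 4.79 to 12.5 CPM and 83.0 to 202 CPM, a log2 difference of 4.11 (SE 0.24, adjusted p = 6.92e-09). Dok7, an adaptor of the muscle receptor MuSK, was at 4.29 to 8.41 CPM and 38.2 to 90.3 CPM. Col6a1, a collagen VI chain, was at 2.90 to 6.10 CPM and 7.49 to 108 CPM, and its log2 difference of 3.26 fell to 1.29 without libraries 5 and 6.

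Cadherins were mostly lower in batch 2, and matrix genes went both ways. Of 23 cadherins and protocadherins, nearly all outside the clusters, 13 passed the 2-fold minimum, all lower, beside 12.5% of all genes. Their median log2 difference was −1.42. Pcdh17 was at 114 to 167 CPM in batch 1 and 0.0728 to 0.364 CPM in batch 2, and Cdh11, a mesenchymal cadherin, at 41.8 to 63.7 CPM and 0.424 to 1.38 CPM. Of 28 basement membrane and matrix genes, 12 were called higher and 10 lower, 5 and 7 passed the 2-fold minimum, and the median log2 difference was 0.198. Nid1, which links laminin to collagen IV, was at 43.3 to 66.5 CPM and 0 to 0.655 CPM, a log2 difference of −8.17 (SE 0.32, adjusted p = 3.69e-11). Col4a1, a chain of collagen IV, was at 38.9 to 49.9 CPM in batch 1 and 179.8 to 241.8 CPM in batch 2, a log2 difference of 2.19 (SE 0.08, adjusted p = 2.88e-11). Of the 17 fibroblast and mesenchyme genes tested, 8 were called lower and 4 higher, 7 and 2 passed the 2-fold minimum, and the median log2 difference was −0.197. Thy1 and Acta2 of this list, both used as mesenchymal markers, had log2 differences of −9.15 and −7.66, and Col6a2, a collagen VI chain, had one of 4.59.

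Of 33 imprinted genes tested, whose copies are active by parent of origin, 9 passed the 2-fold minimum lower and 2 higher, with a median log2 difference of −0.132. Ndn, a growth-suppressing protein, was at 29.8 to 41.0 CPM in batch 1 and 0.601 to 0.947 CPM in batch 2, a log2 difference of −5.57 (SE 0.16, adjusted p = 1.43e-12). Plagl1, a zinc finger regulator, was at 103 to 176 CPM and 12.2 to 22.2 CPM, whereas Peg3 was at 274 to 323 CPM and 355 to 529 CPM. Airn, the non-coding RNA of the Igf2r locus, was at 3.59 to 6.42 CPM and 9.69 to 22.8 CPM and overlaps Igf2r on the other strand. Genes of DNA methylation and Polycomb, which silence developmental genes, moved little: 1 of 25 passed in each direction, Pcgf2 (log2 difference 1.92) and Phf19 (−1.37).

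Of 57 replication-dependent histone genes tested, whose mRNAs lack poly(A) tails, 53 were called lower and 3 higher, beside 30.4% and 30.1% of all genes. Past the 2-fold minimum were 49 lower and 2 higher, beside 12.5% and 7.75%, with a median log2 difference of −4.62. Members near 0 in batch 2, such as Hist1h2ab, passed the filter on low counts only through batch 1, so their direction was given. Hist1h2ab was at 12.9 to 23.1 CPM in batch 1 and 0 to 0.300 CPM in batch 2, a log2 difference of −7.12 (SE 0.38, adjusted p = 9.02e-10), while the linker histone Hist1h1c overlapped at 95.8 to 160 CPM and 74.0 to 131 CPM. Histone genes resemble each other closely and are uncertain singly. Of 33 small nucleolar and Cajal body RNAs, which also lack poly(A) tails, 11 passed lower and 0 higher, and Scarna2 was at 14.3 to 27.9 CPM and 0.121 to 0.583 CPM. The share of reads assigned to no gene also differed, which made up 18.95% to 25.1% of a batch 1 library and 8.83% to 12.7% of a batch 2 library. The labels give the same library kit for both batches, and the part of RNA quality or library preparation in these values was not tested. Neat1, a nuclear long non-coding RNA, went the other way, from 9.44 to 25.4 CPM to 84.9 to 198 CPM.

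Ribosomal protein, oxidative phosphorylation, and cholesterol and fatty acid synthesis genes were close. Of 75 ribosomal protein genes 1 passed the 2-fold minimum (Rpl29, lower), of 42 oxidative phosphorylation genes 0, and of 25 cholesterol and fatty acid synthesis genes 0, beside 20.3% of all genes tested. Median log2 differences were −0.016, −0.124 and 0.03. Of 353 Zfp zinc finger genes, 137 were called lower and 75 higher, beside 30.4% and 30.1% of all genes. Of these 353, 22 passed the 2-fold minimum lower and 8 higher, beside 12.5% and 7.75%. Of 20 glutathione transferase and detoxification genes, 5 passed lower and 1 higher, beside the same 12.5% and 7.75%. Their median log2 difference was −0.156. Of 28 ATF4 and stress response genes 2 passed, both lower, with a median of 0.014. Nqo1, a quinone reductase of the stress list, was at 10.6 to 20.8 CPM in batch 1 and 0.0728 to 0.370 CPM in batch 2, and Gstt1, a glutathione transferase, was at 21.6 to 32.2 CPM and 0 to 0.224 CPM.

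Differences were spread over all 19 autosomes. Among 10799 protein-coding genes at a mean of 5 CPM or more, the median log2 difference by chromosome ran from −0.09 (chromosome 13) to 0.098 (chromosome 15), beside 0.009 for all. The share of these genes past the 2-fold minimum lower in batch 2 ran from 5.24% (chromosome 17) to 13.6% (chromosome 13, which carries the largest histone cluster), and the share higher from 1.61% (chromosome 1) to 6.42% (chromosome 18, which carries the protocadherins).

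The batches did not differ detectably in their response to the treatment. In a model with a batch by treatment term, 0 of 15267 autosomal genes passed at an adjusted p under 0.05 by edgeR, 160 had an unadjusted p under 0.05, and DESeq2 and limma-voom also called 0. The 160 are fewer than a threshold of 0.05 gives by chance, so the edgeR test was conservative here. With 3 libraries per batch and treatment, differences in response can be missed, and 0 calls do not show that the responses were the same. The differences between batches were present in each treatment alone: 2264 genes passed the 2-fold minimum among control libraries and 2439 among gRNA libraries, with 3 against 3 in each.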

How the data were processed

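Total RNA from 12 neural stem cell libraries was extracted with RNeasy Mini kits, depleted of ribosomal RNA with Ribo-Zero Plus and made into libraries with the Illumina Stranded Total Prep, per the labels' protocols. The submitters' processing notes name Trimmomatic, STAR, SAMtools, HTSeq and the build GRCm39. The authors deposited raw read counts per gene for each library. The annotation, the tool versions and the strand setting were not given in those notes. Rows that name no gene were left out of library sizes, and reads in no feature were 8.83% to 25.1% of a library. Of 57132 gene IDs, 51880 had a symbol and 37592 were matched to RefSeq (GRCm38.p6) for chromosome and gene order only, leaving 35248 autosomal genes.

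Counts were tested with edgeR 4.0.16 (R 4.3.3): filterByExpr with a minimum count of 10, TMM scaling, a quasi-likelihood fit on all 18279 genes that passed with batch and treatment as terms, Benjamini-Hochberg adjustment over all of them, and glmTreat for the 2-fold minimum. Then 575 genes on X or Y and 2437 without an autosome in the annotation were set aside. DESeq2 1.42.0, limma-voom (limma 3.58.1), other scalings, filters and sample sets were tried as alternatives. Genes were named by a rule: the 10 largest rises and falls among genes past the 2-fold minimum at 10 CPM or more in the higher batch, the 6 largest each way at 2 CPM or more in all libraries, up to 4 per gene list, and a set of anchor genes. Other genes in the text were picked from the lists after their values were seen. The 47 gene lists, the members and the tests were chosen with earlier results of these data known, so a list's direction is not independent support. Lists are described by counts and medians, without a test of the list. Depth limits low genes: 3 reads over a batch correspond to 0.0349 CPM in batch 1 and 0.0328 CPM in batch 2, which covers counting error only. Some items are not reported here.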

Additional observations from a re-analysis of the deposited data

Results flagged for a closer look

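Over both batches together, 229 groups of 6 libraries from 166 named genes were screened for a library that lay far from the other 5 (by Dixon's 95% critical value for the gap over the range), which chance gives in about 1 of 20 groups. There were 26 such libraries, and 24 of them were batch 2 libraries 5 or 6.

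In batch 2 library 6, a control library, glial and progenitor genes were high. Slc1a2, a glutamate transporter, was at 76.7 CPM (12.3 to 23.1 in the other 5), Aqp4, a water channel of astrocytes, at 9.83 (0.451 to 1.31), Fgfr2 at 42.5 (18.9 to 27.4), Sox1 at 148 (81.3 to 88.0) and Sox2 at 192 (127 to 150). Virus sensors were also high there, with Ifih1 at 10.9 CPM (0.901 to 2.18) and Ddx58, the sensor RIG-I, at 27.6 (7.44 to 14.1), still under every batch 1 library. The other high genes of library 6 were Cxcr4 at 11.5 CPM (4.12 to 5.29), Fcgrt at 71.7 (31.7 to 37.3), Fgf8 at 4.22 (1.91 to 2.52), Kcna2 at 14 (8.31 to 10.2), Lef1 at 20.5 (12.8 to 15.4) and Tubb3 at 26.2 (13.6 to 18.2). Ankrd37 was low in it, at 1.89 CPM (3.27 to 3.70).

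In batch 2 library 5, a gRNA library, Flt1, a VEGF receptor, was at 21.6 CPM (3.46 to 6.77 in the other 5), Sema5a at 10.7 (2.06 to 3.50), Gap43 at 5.37 (1.11 to 2.55) and Pfkp, a glycolytic enzyme, at 18.0 (8.43 to 11.4). Dcpp1 was at 22.9 CPM (9.63 to 12.5) and its near-identical copy Dcpp2 at 24.1 (9.07 to 11). Barx1 was at 23.1 CPM (18.5 to 20), Frrs1l at 8.41 (4.64 to 5.68) and Nrarp, a Notch target, at 22.8 (16.0 to 17.8). Col18a1 was low in it, at 1.96 CPM (2.71 to 3.06). In batch 1, Ccna1 was at 2.90 CPM in library 4 (1.62 to 2.09) and Hist1h2bl at 38.2 CPM in library 5 (21.4 to 27.1).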

How the results depend on the processing

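No paired analysis was possible because the RNA-seq libraries carry no replicate numbers in the labels, and the numbers used here only name them. With 1 library left out at a time, 8913 to 10198 autosomal genes were called (4389 to 5060 higher, 4348 to 5138 lower), 3068 to 3337 passed the 2-fold minimum (1163 to 1247 higher, 1872 to 2128 lower), 150 to 172 genes were detected in batch 1 only and 36 to 41 in batch 2 only, and the batch by treatment term called 0. The control libraries alone gave 5498 calls (2599 higher, 2899 lower), with fewer libraries in the fit. An adjusted p under 0.001 left 5480 (2443 higher, 3037 lower), and 665 higher past the 2-fold minimum. A minimum count of 50, which tests fewer genes, left 1762 past the 2-fold minimum (592 higher, 1170 lower), and a 4-fold minimum left 1551 (424 higher, 1127 lower). Detection at 1 CPM gave 57 genes in batch 2 only, detection at 5 CPM gave 20 in batch 2 only and 88 in batch 1 only, and absence at 0.1 CPM or less gave 94 in batch 1 only. Small medians changed sign: midbrain and isthmus factors (−1.021) and neural crest genes (−0.28) at a minimum count of 50, neural crest genes also in control libraries (−0.128), in gRNA libraries (−0.345) and without batch 2 libraries 5 and 6 (−0.263), and endothelial and mural genes in gRNA libraries (−0.012). The uncalled differences of Pax6 (−0.034 in gRNA libraries), Sox2 (−0.15 to 0.005 over the libraries left out) and Nes (−0.17 to 0.023) crossed 0; the cause was not tested. Over all named genes and settings, 3598 values kept their direction and side of the threshold, 23 lost and 3 gained a call, and 3 changed sign. Olig2 lost its call without any of 7 single libraries.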

Other observations

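Several signalling and metabolic groups also differed by single members. Of 21 Notch pathway genes, 3 passed the 2-fold minimum, all higher in batch 2, with a median log2 difference of 0.027. Jag2, a Notch ligand, was at 0.265 to 1.04 CPM in batch 1 and 7.72 to 11.1 CPM in batch 2, a log2 difference of 3.67 (SE 0.21, adjusted p = 2.58e-09). Hes5, a Notch target, was at 3.58 to 9.28 CPM and 11.2 to 67.8 CPM, and its log2 difference of 2.15 was 1.29 without batch 2 libraries 5 and 6. Of 28 growth factor receptors and feedback genes, 3 passed lower and 1 higher, among them Ier3, an early response gene, at 26.9 to 33.3 CPM in batch 1 and 0.363 to 0.601 CPM in batch 2. Of 21 quiescence and BMP response genes, 2 passed lower and 1 higher, and Hopx, a marker of quiescent stem cells, was at 12.6 to 19 CPM and 2.40 to 4.19 CPM.

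Of 23 glycolysis and hypoxia genes, 4 passed higher and 3 lower. Pfkp, a phosphofructokinase, was at 105 to 128 CPM in batch 1 and 8.43 to 18.0 CPM in batch 2, and Ndrg1, a hypoxia-responsive gene, was at 0.133 to 1.1 CPM and 1.31 to 5.33 CPM. Slc7a11, the cystine transporter, was at 104 to 374 CPM and 8.63 to 19 CPM, a log2 difference of −3.88 (SE 0.40, adjusted p = 3.46e-06). Germline genes were mostly too low to test: 7 of 30 were tested and 1 passed in each direction. Sycp1, of the meiotic chromosome axis, had 3 reads in batch 1 and was at 1.31 to 4.73 CPM in batch 2, while Smc1b, a meiotic cohesin, was at 1.51 to 3.29 CPM and 0 to 0.218 CPM.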
